A study of Mus musculus with 52 samples.

Results

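The genes described here are 35 genes whose products copy DNA. They were chosen by name, as the rows of the deposited table whose gene symbol equals a name on a list of 35, and all 35 were found among the 24116 genes of the table. By role, 6 encode the subunits of the MCM helicase (Mcm2 to Mcm7), 4 load that helicase onto origins (Orc1, Orc6, Cdc6 and Cdt1), 6 activate it (Cdc45, Mcm10 and the 4 GINS subunits), 6 belong to the primase and the DNA polymerases, 4 to the sliding clamp and its loader (Pcna, Rfc3, Rfc4 and Rfc5), 2 to the joining of Okazaki fragments (Fen1 and Lig1), 1 binds single-stranded DNA (Rpa2), 3 supply nucleotides (Rrm1, Rrm2 and Tyms), and 3 rebuild chromatin and its methylation behind the fork (Chaf1a, Chaf1b and Uhrf1).

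RNA of mouse intestinal organoids, small epithelial bodies grown from single cells, was measured by sequencing of polyadenylated RNA. The organoids came from 2 cultures, each from a wild type male C57BL/6 littermate of 8 weeks, and RNA was purified in duplicate from each culture, with 3 wells of 50000 seeded cells pooled for each purification. The 13 groups were atRA organoids (10 µM all-trans retinoic acid) on days 1, 3, 4 and 5, RXRi organoids (5 µM of an antagonist of the retinoid X receptor) on the same 4 days, and DMSO organoids (the vehicle) on days 0, 1, 3, 4 and 5. Compounds were given on day 0 and again on day 3. All groups were grown with EGF, Noggin and R-spondin throughout, and until day 3 the medium also held 20% Wnt3a-conditioned medium, 10 µM Y-27632, which blocks ROCK, and 3 µM CHIR99021, which blocks GSK3B. Day 4 is therefore the first time point after both the change of medium and the repeated dose, and these cannot be told apart from time in culture.

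In G1 the origin recognition complex, with Cdc6 and Cdt1, loads the MCM helicase onto DNA, and in S phase Cdc45, GINS and Mcm10 turn the loaded helicase into a moving fork. Many of these genes are transcribed at the G1/S boundary by E2F factors, which the retinoblastoma protein restrains until cyclin-dependent kinases inactivate it. In the intestine the crypt base and the transit-amplifying zone hold the cycling cells, and cells leave the cycle as they mature on the way to the villus. Retinoic acid binds receptors that act on DNA as pairs with the retinoid X receptor.

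The values were RPKM, reads corrected for the length of the gene and the size of the library. From the DMSO organoids of day 1, 1 of the culture 1 duplicates was left out because it held 12443 reads, so that group has 3 libraries and the other 12 groups have 4. The 51 libraries used held between 12895667 and 26206028 reads, with a median of 19686970. Every one of the 35 genes had at least 46 reads in each of these libraries. The epithelial marker Epcam lay between 257 and 789 RPKM in the 51 libraries, Cdh1 between 176 and 478 RPKM and Vil1 between 133 and 377 RPKM. The other epithelial markers listed varied more. Krt8 lay between 578 and 6904 RPKM, Krt18 between 216 and 4058 RPKM and Krt20 between 7.42 and 259 RPKM. Cdx1 lay between 1.08 and 134 RPKM and Cdx2 between 20.9 and 141 RPKM. Of 7 fibroblast markers, Col3a1, Dcn and Lum were at 0 in all 51 libraries and the sum of the list did not pass 0.504 RPKM in any. Among the immune markers, Ptprc did not pass 0.0139 RPKM, Cd3e did not pass 0.0986 RPKM, and Cd68 and Itgam reached 7.63 and 3.61 RPKM. The 4 endothelial markers did not sum to more than 0.564 RPKM, and Hbb-bs was at 0.

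All tests below were made with limma on log2(RPKM + 1), a scale that understates the changes of low genes, over the means of the 2 cultures of each group (n = 2 cultures), with Benjamini-Hochberg adjustment over 12443 genes and a threshold of 0.05. A gene is said to have risen or fallen where it passed that threshold. All 35 genes passed the filter on low values. The value after ± is the standard error for a log2 fold change and the SD over the 2 culture means for a level. Where single libraries are listed, the duplicates of culture 1 come before those of culture 2. The fit held no term for culture. Its p-values rest on a spread between cultures pooled over all 13 groups, not that of the groups compared. They extend only to 2 cultures, from 2 mice. For the mean of the 35 genes the spread differed between groups, from an SD of 0.0016 in DMSO organoids on day 0 to 0.40 on day 5.

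Over the course of the DMSO organoids the 35 genes were highest on days 1 and 3 and lowest on days 4 and 5. The mean of their log2 levels in atRA organoids was 5.31 ± 0.06 on day 1, 5.05 ± 0.07 on day 3, 3.92 ± 0.0038 on day 4 and 4.17 ± 0.05 on day 5. In RXRi organoids the same mean was 5.07 ± 0.02 on day 1, 4.58 ± 0.11 on day 3, 3.43 ± 0.22 on day 4 and 3.15 ± 0.23 on day 5. In DMSO organoids it was 4.76 ± 0.0016 on day 0, 5.34 ± 0.04 on day 1, 5.26 ± 0.08 on day 3, 4.07 ± 0.25 on day 4 and 3.92 ± 0.40 on day 5, above the RXRi mean of the same day each time. As a share of all reads, the 35 genes took 0.223% in atRA, 0.0980% in RXRi and 0.191% in DMSO organoids on day 5, and 0.523% in DMSO organoids on day 1. In such bulk libraries, fewer cycling cells and less of these RNAs per cell cannot be told apart.

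**Figure D1:**
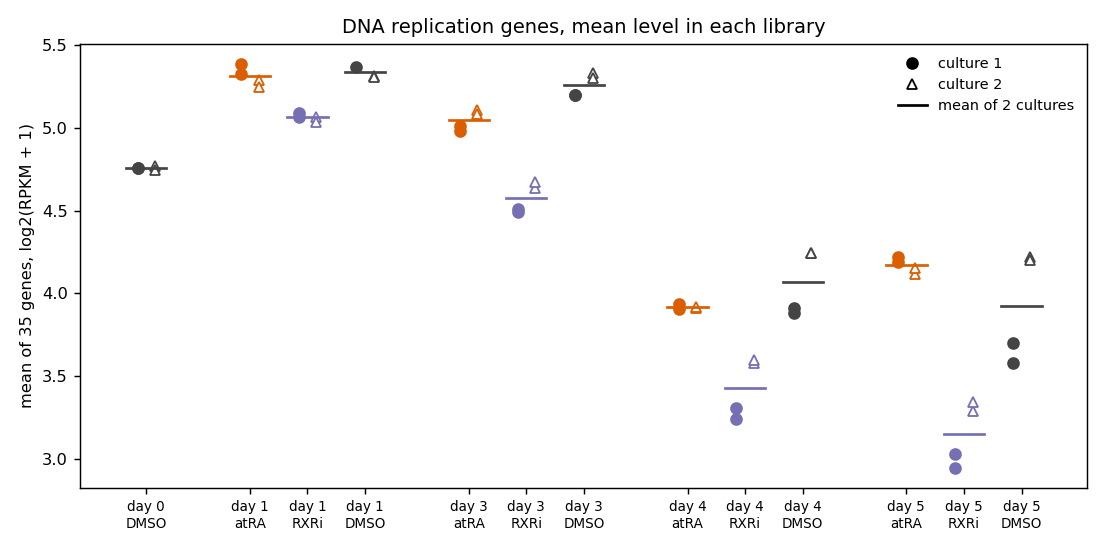
Mean of log2(RPKM + 1) over the 35 DNA replication genes in each of the 51 libraries (vertical axis), by day and treatment (horizontal axis, atRA in orange, RXRi in purple, DMSO in grey). Filled circles are culture 1, open triangles culture 2, and lines the mean of the 2 cultures. The level is highest on day 1 in each treatment, drops between days 3 and 4 in each treatment, and is lowest in RXRi organoids on each day.

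Levels per length differed widely among the genes. In DMSO organoids on day 3, Pcna, the sliding clamp that tethers polymerases to DNA, averaged 217 ± 13.1 RPKM, followed by Rrm2 at 128 ± 3.41 RPKM and Mcm7 at 119.8 ± 7.79 RPKM. At the low end stood Gins3, a GINS subunit, at 6.31 ± 0.723 RPKM and Pola1, the catalytic subunit of polymerase alpha, at 7.97 ± 0.712 RPKM. Of the 35 genes, 19 had their highest group mean in DMSO organoids on day 1, 10 in atRA organoids on day 1, 4 in DMSO organoids on day 3, 1 in RXRi organoids on day 1 (Pole2) and 1 in DMSO organoids on day 0 (Pola1). The lowest group mean fell in RXRi organoids on day 5 for 33 of them and in atRA organoids on day 4 for the other 2, Gins4 and Pole2.

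Between day 0 and day 1, 28 of the 35 genes rose in DMSO organoids and none fell, where 25.6% of all genes tested rose and 35.6% fell. The median log2 fold change of the 35 genes was 0.62, against -0.09 over all genes tested. All 4 origin-loading genes, all 6 MCM genes, all 6 helicase activators, all 3 genes of nucleotide supply and all 3 chromatin genes were among those that rose. The largest rise was that of Rrm2, the small subunit of ribonucleotide reductase. It had 137, 130.2 and 133 RPKM on day 1, against 52.7, 55.2, 52.8 and 52.1 RPKM on day 0. The groups lie far apart, and the log2 fold change was 1.32 ± 0.13 (adjusted p = 3.94e-07, limma). Cdc6, the ATPase that recruits Cdt1 and the helicase to origins, had 14.6, 15.7 and 15.3 RPKM on day 1, against 7.57, 6.86, 7.44 and 6.80 RPKM on day 0. Its groups did not overlap either, with a log2 fold change of 0.97 ± 0.16 (limma adjusted p = 7.09e-05).

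Of the polymerase and primase genes 2 of 6 rose at this step, Pola2 by 0.54 and Pole2 by 0.62 on the log2 scale. Pola1 had 7.20, 6.92 and 7.58 RPKM on day 1, against 9.02, 8.59, 8.27 and 7.81 RPKM on day 0. All 3 day 1 libraries lay below the 4 day 0 libraries, and the log2 fold change of -0.20 did not pass the threshold (95% interval -0.45 to 0.06). The other genes that did not pass were Pold1, the catalytic subunit of polymerase delta (-0.16), Pole, that of polymerase epsilon (0.14), Prim1, the catalytic primase subunit (0.25), Pcna (0.27), Rfc3 (0.20) and Lig1, the ligase that seals Okazaki fragments (0.28). The count depends on the libraries of both groups: it was lower with any 1 culture of either day left out, and with the shallow library kept 12 genes rose.

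Between day 1 and day 3 none of the 35 genes rose or fell in DMSO organoids by limma, and none had an unadjusted p under 0.05, where 6.19% of all genes rose and 6.49% fell. Their log2 fold changes lay between -0.28 for Orc6 and 0.12 for Pola1, and no 95% interval went beyond -0.65 or 0.55. The voom alternative on recovered reads also called none.

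Between day 3 and day 4 all 35 genes fell in DMSO organoids, where 34.3% of all genes fell and 20.5% rose. Their median log2 fold change was -1.24, and that of all genes tested was -0.10. The 6 MCM genes fell together. Mcm5 had 24.8, 26, 38.9 and 40.1 RPKM on day 4, against 82.6, 86.7, 101 and 102 RPKM on day 3. Its highest day 4 library is well below its lowest day 3 library, and within day 4 culture 2 is above culture 1. The log2 fold change of Mcm5 was -1.52 ± 0.28 (limma adjusted p = 2.30e-04), and that of Mcm3 was -1.52 ± 0.22 (limma adjusted p = 2.40e-05), the 2 largest falls of the 35. Among the loading genes, Cdc6 had a log2 fold change of -1.42 ± 0.16 and Orc1, the ATPase subunit of the origin recognition complex, one of -1.38 ± 0.17.

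The smallest falls at this step were those of Pold1, Gins4 and Pcna. Pold1 had 14.5, 12.6, 18.2 and 17.7 RPKM on day 4, against 20.7, 23.02, 26.9 and 29.1 RPKM on day 3, a log2 fold change of -0.63 ± 0.18 (limma adjusted p = 0.00643). The groups did not overlap. Pcna, which also serves repair synthesis, had 133, 136, 118 and 124 RPKM on day 4, against 212, 203, 233 and 219 RPKM on day 3, and remained the most abundant of the 35 RNAs on both days. Its log2 fold change was -0.76 ± 0.13 (limma adjusted p = 1.36e-04), and that of Gins4 was -0.69 ± 0.15. With any 1 culture of either group left out, 34 or 35 of the genes fell.

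The fall between days 3 and 4 was seen in each treatment. All 35 genes fell in atRA organoids (39.5% of all genes fell and 17.9% rose), with a median of -1.14, and all 35 fell in RXRi organoids (32.9% of all genes fell and 11.2% rose), with a median of -1.16. With the shallow day 1 library kept, these counts were 23 and 22. No day 1 library enters these steps, so their fold changes stay the same. Only the spread shared by all groups and the set of genes tested change. The test of the difference between the step in atRA and the step in DMSO organoids called none of the 35 genes, with 1 at an unadjusted p under 0.05 (Rrm2, -0.57 ± 0.19), where 0.129% of all genes were higher and 0.177% lower. The same test for RXRi called none, with none at an unadjusted p under 0.05, where 5.34% of all genes were higher and 12.2% lower. The 95% intervals of these differences ran between -0.97 and 1.07 for atRA and between -0.78 and 0.97 for RXRi, so the steps are not shown to be alike. The voom alternative called none of the 35 in either test.

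The start-site sequences of several of these genes are shown because the genes moved together at this step. RefSeq windows (GRCm38.p6, from 250 bases before to 50 after the start, written 5′ to 3′ along the gene) were matched for 30 of the 35 genes. They were searched on both strands for the E2F octamers TTTCCCGC, TTTGGCGC, TTTGCCGC and TTTCGCGC, which can overlap one another, and matches are in capitals. Of the 30 genes, 14 held at least 1 match (46.7%), against 472 of 9792 tested genes with a window (4.82%) and 2.26% of all 32851 windows. Mcm3 at chr1:20820263-20820562 (minus strand) and Mcm5 at chr8:75109259-75109558 (plus strand), with the largest falls, hold 2 matches each, which overlap in Mcm5. Mcm6 at chr1:128359656-128359955 (minus strand) holds 3, and Pole2 at chr12:69228141-69228440 (minus strand), which encodes a subunit of polymerase epsilon and did not pass the threshold under RXRi on any day, holds 1. Mcm10 at chr2:5012742-5013041 (minus strand), the gene with the largest falls under RXRi, holds none. Its window ends in TTTGGCG, the start of TTTGGCGC, and the next base was not read. A match or its absence says nothing on whether a factor binds there.
Mcm3: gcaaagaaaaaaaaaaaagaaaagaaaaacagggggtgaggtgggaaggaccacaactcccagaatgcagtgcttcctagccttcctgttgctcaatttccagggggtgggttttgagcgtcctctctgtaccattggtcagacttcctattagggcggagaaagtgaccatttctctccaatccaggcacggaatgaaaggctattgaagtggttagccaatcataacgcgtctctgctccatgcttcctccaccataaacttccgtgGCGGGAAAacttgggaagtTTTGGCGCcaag
Mcm5: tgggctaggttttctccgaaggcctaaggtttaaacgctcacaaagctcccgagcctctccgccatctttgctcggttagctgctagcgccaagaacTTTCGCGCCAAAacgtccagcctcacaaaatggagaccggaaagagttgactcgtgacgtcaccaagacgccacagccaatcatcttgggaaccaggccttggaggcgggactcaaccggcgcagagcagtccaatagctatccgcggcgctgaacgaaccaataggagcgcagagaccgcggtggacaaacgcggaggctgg
Mcm6: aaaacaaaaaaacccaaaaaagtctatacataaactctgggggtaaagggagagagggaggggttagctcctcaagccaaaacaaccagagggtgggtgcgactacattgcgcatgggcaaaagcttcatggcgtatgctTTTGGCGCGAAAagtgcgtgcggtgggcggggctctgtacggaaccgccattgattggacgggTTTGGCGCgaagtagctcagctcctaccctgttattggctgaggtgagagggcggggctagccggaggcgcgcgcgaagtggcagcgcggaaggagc
Pole2: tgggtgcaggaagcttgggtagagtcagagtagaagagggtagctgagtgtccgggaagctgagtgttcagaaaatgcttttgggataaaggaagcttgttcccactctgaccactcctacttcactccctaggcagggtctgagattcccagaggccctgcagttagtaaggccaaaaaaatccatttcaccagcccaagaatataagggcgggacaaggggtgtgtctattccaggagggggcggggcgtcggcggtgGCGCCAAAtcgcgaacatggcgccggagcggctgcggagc
Mcm10: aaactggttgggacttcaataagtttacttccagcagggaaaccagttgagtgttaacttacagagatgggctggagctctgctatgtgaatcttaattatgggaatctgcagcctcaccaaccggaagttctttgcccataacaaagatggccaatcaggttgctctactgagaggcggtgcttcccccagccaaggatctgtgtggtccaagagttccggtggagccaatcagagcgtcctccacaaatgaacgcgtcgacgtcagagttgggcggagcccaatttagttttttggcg

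Other promoter elements of cell cycle genes were counted in the same windows. The CHR element, TTTGAA or TTCGAA on either strand, was in 6 of the 30 genes (20.0%), against 16.5% of tested genes. CCAAT on either strand was in 19 of the 30 (63.3%), against 43.6%. The E2F matches lay in genes of most roles: Cdc6, Cdt1 and Orc1 among the loading genes, 4 of the MCM genes, Gins3, Pola1, Pold1 and Pole2, Rfc3, Lig1 and Uhrf1.

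Between day 4 and day 5 none of the 35 genes rose or fell in DMSO organoids by limma, and 2 had an unadjusted p under 0.05, where 2.11% of all genes rose and 1.33% fell. The voom alternative called none. The 95% intervals ran between -0.92 and 0.42. On day 5 the cultures of the DMSO group differed: Mcm5 had 15.3, 18.2, 37.1 and 37.3 RPKM, with culture 2 clearly above culture 1. Without culture 2 of that group 10 genes fell between days 4 and 5. Against day 0, all 35 genes fell by day 5 (51.1% of all genes fell and 18.7% rose), with a median of -0.86 while that of all genes was -0.31. That count was 21 with the shallow library kept and 22 after median-of-ratios scaling, which moved the median of all genes to 0.02. In RXRi organoids none of the 35 genes rose or fell between day 4 and day 5 by limma or by voom (0.241% of all genes rose and 0.145% fell), and 7 had an unadjusted p under 0.05, all lower on day 5, with 95% intervals between -1.10 and 0.33. The test of this step minus the DMSO step called none by limma or voom, with none at an unadjusted p under 0.05, where 0.201% of all genes were higher and 0.667% lower. In DMSO organoids the smallest fall between day 0 and day 5 was that of Rrm2 (-0.36) and the largest that of Orc1 (-1.13).

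**Figure D2:**
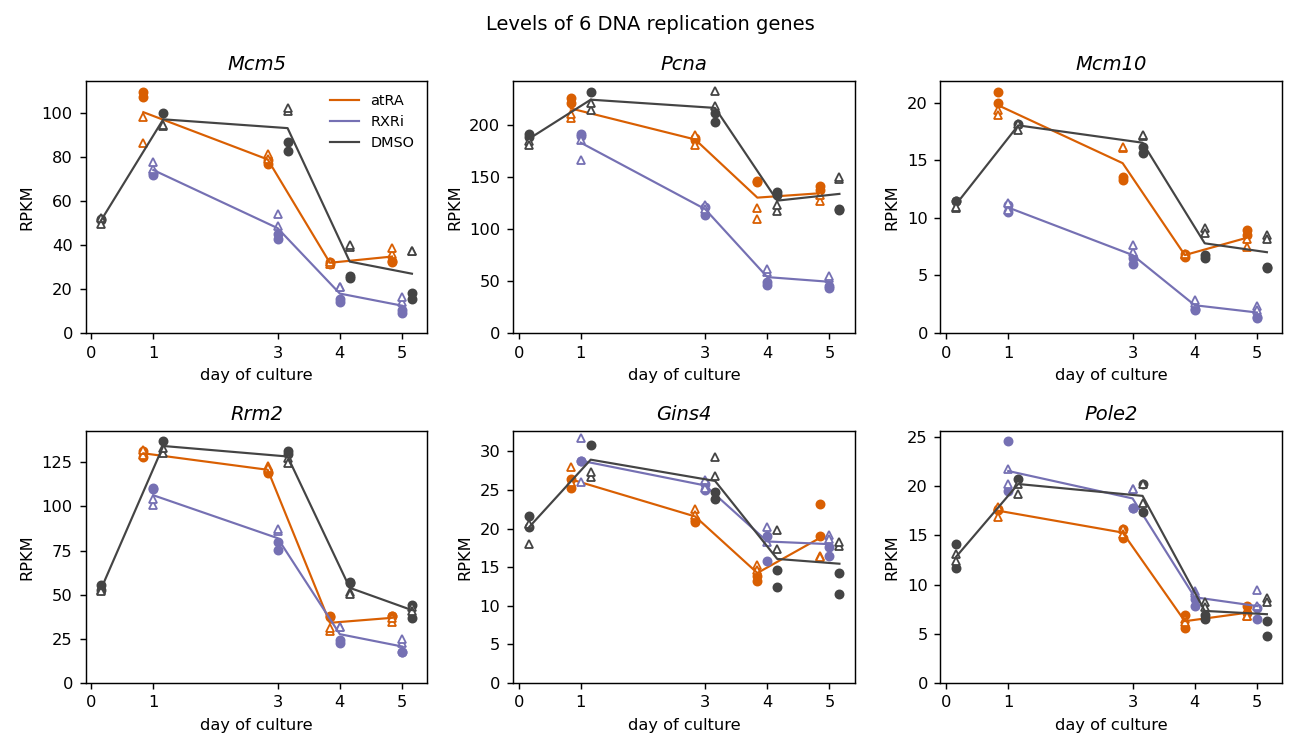
RPKM of Mcm5, Pcna, Mcm10, Rrm2, Gins4 and Pole2 (vertical axes, from 0) by day of culture (horizontal axes), with atRA in orange, RXRi in purple and DMSO in grey. Each point is a library, filled circles for culture 1 and open triangles for culture 2, points of a day are set side by side, and lines join the means of the 2 cultures. The RXRi mean lies below the DMSO mean on each day in Mcm5, Pcna, Mcm10 and Rrm2, and near or above it in Gins4 and Pole2.

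Most of the 35 genes were lower in RXRi than in DMSO organoids on each day. From day 3 on, most passed the threshold. On day 1, 3 genes fell and none rose, where 9.93% of all genes fell and 10.5% rose, so the number that fell lay near the share of all genes. The 3 were Mcm10 (log2 fold change -0.68), Gins3 (-0.37) and Pola2 (-0.35), and most of these calls were lost with any 1 culture left out. On day 3, 31 fell and none rose (25.4% of all genes fell and 18.4% rose), with a median of -0.76. On day 4, 28 fell and none rose (37% of all genes fell and 22% rose), with a median of -0.69. On day 5, 30 fell and none rose (35.1% of all genes fell and 28.7% rose), with a median of -0.81. The medians of all genes on days 3, 4 and 5 were -0.07, -0.13 and -0.06. The 4 comparisons use different DMSO libraries and share 1 estimate of the spread. In both cultures, 32 of the 35 genes were lower in RXRi than in DMSO organoids on day 1. The median differences of that day were -0.299 in culture 1 and -0.297 in culture 2, and the median of all genes was -0.0038. On day 3 and again on day 4, 33 were lower in both cultures, and on day 5, 31 were. The 35 genes vary together, and the share of all genes lower in both cultures was not counted.

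Mcm10, which stabilises the active helicase, fell on each of the 4 days. It had 11.2, 10.5, 10.7 and 11.3 RPKM in RXRi organoids on day 1, against 18.2, 18.2 and 17.7 RPKM in DMSO organoids. On day 4 it had 2.01, 2.11, 2.65 and 2.89 RPKM in RXRi organoids, against 6.82, 6.50, 9.12 and 8.73 RPKM in DMSO organoids. The groups did not overlap on either day, and the RXRi libraries of day 4 were also below those of day 1. The log2 fold changes were -0.68 ± 0.16 on day 1, -1.18 ± 0.16 on day 3, -1.36 ± 0.16 on day 4 and -1.52 ± 0.16 on day 5 (limma adjusted p = 0.00678, 2.19e-05, 1.91e-06 and 3.74e-07).

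All 6 MCM genes fell on days 3, 4 and 5, with medians of -0.87, -0.78 and -0.97. Mcm7 had 21.1, 23.03, 28.1 and 28.1 RPKM in RXRi organoids on day 4, against 42.4, 41.9, 56.1 and 56.2 RPKM in DMSO organoids, a log2 fold change of -0.94 ± 0.19 (limma adjusted p = 3.68e-04). In both treatments culture 2 was above culture 1, and the groups did not overlap. Mcm5 had 14.3, 15.3, 21.1 and 21.1 RPKM in RXRi organoids on day 4, against 24.8, 26, 38.9 and 40.1 RPKM in DMSO organoids. Here too the highest RXRi library was below the lowest DMSO library, with a wider error, -0.81 ± 0.28 (limma adjusted p = 0.0194).

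The clamp and its loader fell on all of days 3, 4 and 5, 4 of 4 genes each day. Pcna had 48.8, 46.2, 58.9 and 61.7 RPKM in RXRi organoids on day 4, against 133, 136, 118 and 124 RPKM in DMSO organoids, and the log2 fold change of -1.24 ± 0.13 was the second largest of the 35 genes on that day after that of Mcm10 (limma adjusted p = 4.57e-07). On day 5 the log2 fold change of Pcna was -1.42 ± 0.13. Of the polymerase and primase genes 5 of 6 fell on each of these days. Prim1 had 6.82, 6.11, 8.35 and 8.91 RPKM in RXRi organoids on day 5, against 18.3, 19.2, 23.4 and 23.9 RPKM in DMSO organoids. The groups are far apart, with a log2 fold change of -1.38 ± 0.15 (limma adjusted p = 4.97e-07). Pola1 (-0.85) and Pold1 (-0.84) fell on day 4 as well, and neither had risen on day 1 in DMSO organoids.

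Rpa2, a subunit of the protein that coats single-stranded DNA, had log2 fold changes of -1.08 ± 0.20, -0.91 ± 0.20 and -1.12 ± 0.20 on days 3, 4 and 5. Fen1, the flap nuclease of Okazaki fragments, had -0.75 ± 0.23 on day 4, and Lig1 -0.95 ± 0.18. Uhrf1, which directs maintenance methylation to new DNA, had -0.80 ± 0.20, and the CAF-1 subunit Chaf1a had -0.54 ± 0.20. All of these passed the threshold on day 4, and Chaf1b, the other CAF-1 subunit listed, did not (-0.49, 95% interval -0.94 to -0.04).

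**Figure D3:**
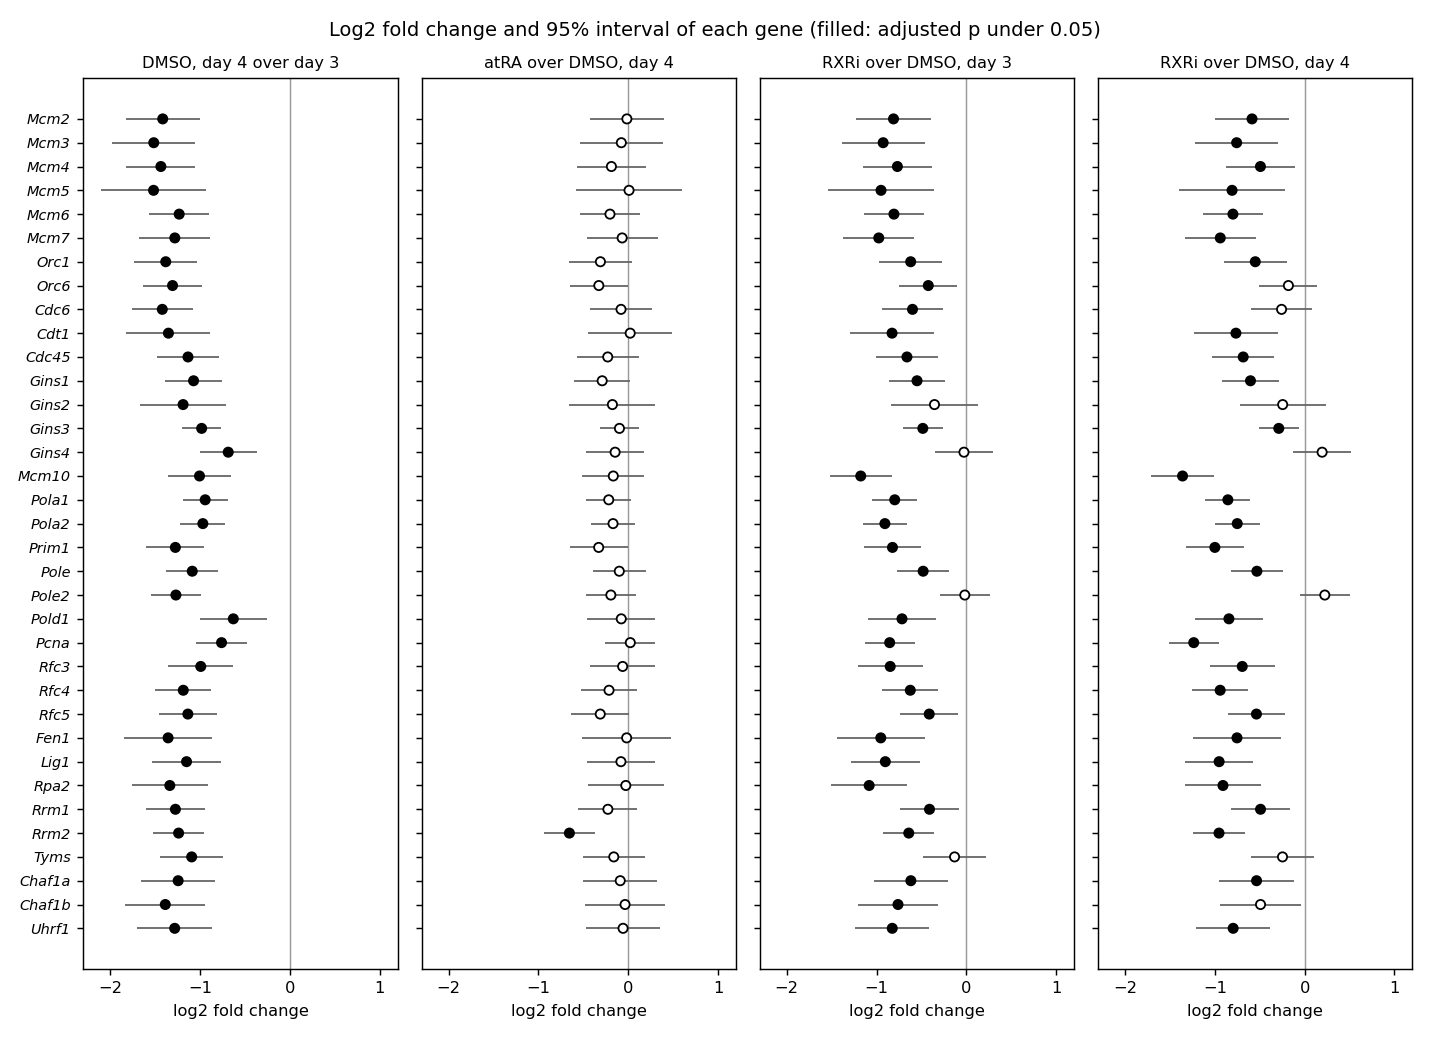
Log2 fold change (horizontal axes) of each of the 35 genes, in rows by role, with its 95% interval, in 4 comparisons. Filled points passed the threshold of 0.05. All points are filled and left of 0 for day 4 over day 3 in DMSO organoids, 1 (Rrm2) is filled for atRA over DMSO on day 4, and 31 and 28 are filled for RXRi over DMSO on days 3 and 4.

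Of the 35 genes, 4 did not pass the threshold between RXRi and DMSO organoids on any day. Gins4, a GINS subunit, had 18.97, 15.8, 20.2 and 18.3 RPKM in RXRi organoids on day 4, against 12.4, 14.7, 17.3 and 19.8 RPKM in DMSO organoids. The groups overlap, and the log2 fold change was 0.19 (95% interval -0.12 to 0.51). Pole2 had 8.57, 7.78, 9.37 and 9.12 RPKM in RXRi organoids on day 4, against 6.48, 6.93, 8.19 and 7.69 RPKM in DMSO organoids. These groups overlap across cultures, while within each culture both RXRi libraries were above both DMSO libraries, with log2 differences of 0.25 and 0.20. The log2 fold change was 0.22 (95% interval -0.05 to 0.50). After median-of-ratios scaling, both genes passed the threshold as higher in RXRi organoids on day 4 and 24 of the 35 fell. Of their partners in the same complexes, Gins1 (log2 fold change -0.60), Gins3 and Pole (-0.53) fell on that day, and Gins2 did not pass the threshold.

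The other two genes that never passed were Tyms, which makes thymidylate, and Gins2. Tyms had 9.36, 9.13, 11.2 and 10.96 RPKM in RXRi organoids on day 4, against 10.5, 11.7, 13.5 and 13.3 RPKM in DMSO organoids, a log2 fold change of -0.25 (95% interval -0.59 to 0.10). Gins2 had a log2 fold change of -0.24 (95% interval -0.72 to 0.23). Both intervals reach to falls larger than that called for Gins3 (-0.29). The loading genes Orc6 and Cdc6 fell on day 3, with log2 fold changes of -0.42 and -0.60, and did not pass on day 4, with -0.18 and -0.26. On day 5 Cdc6 fell (-0.40) and Orc6 did not pass (-0.17).

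The number of genes called between RXRi and DMSO organoids depends on the libraries. With the shallow day 1 library kept, 16 genes fell on day 3, 16 on day 4 and 17 on day 5. The fold changes of these days do not use that library, and it enters through the spread shared by all groups. On day 4, 15 fell without culture 2 of the DMSO group and 16 without culture 1 of the RXRi group, and on day 1 between 0 and 1 fell with any of the 4 cultures left out. Without culture 2 of the DMSO group, 1 gene rose on day 4 and 2 on day 5.

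Of the 35 genes, 1 passed the threshold between atRA and DMSO organoids, on day 4. These comparisons share their DMSO libraries with those of RXRi. On day 1 none rose or fell by limma, none had an unadjusted p under 0.05 and voom called none, where 1.93% of all genes rose and 1.53% fell. On day 3 none passed, 2 had an unadjusted p under 0.05 and voom called none, where 4.32% of all genes rose and 4.36% fell. All 35 were lower in atRA than in DMSO organoids in both cultures on day 3, with a median of -0.23, and the median of all genes was -0.04. The 35 genes vary together, so that count does not stand for 35 separate agreements. The share of all genes lower in both cultures was not counted. Mcm4 had the largest difference, -0.33 (95% interval -0.72 to 0.05, limma adjusted p = 0.350). The 95% intervals of the 35 genes on day 3 ran between -0.82 and 0.36.

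On day 4, 1 of the 35 genes fell in atRA organoids and none rose, where 7.35% of all genes fell and 3.58% rose. It was Rrm2, with 38.1, 37.6, 29.4 and 30.9 RPKM in atRA organoids, against 56.3, 57.3, 51.3 and 50.5 RPKM in DMSO organoids. The groups did not overlap and both cultures moved the same way, with a log2 fold change of -0.65 ± 0.13 (limma adjusted p = 0.00471). The call was lost without culture 2 of the atRA group, without culture 1 of the DMSO group, and with the shallow library kept. In culture 1, 21 of the 35 genes were higher in atRA than in DMSO organoids on day 4, with a median difference of 0.06, and in culture 2 none was, with a median of -0.31. Rrm1, the large subunit of the same enzyme, had a log2 fold change of -0.23 (95% interval -0.55 to 0.10).

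On day 5 none passed between atRA and DMSO organoids by limma, 3 had an unadjusted p under 0.05 and voom called none, where 2.14% of all genes rose and 2.89% fell. The cultures went apart. In culture 1, 34 of the 35 genes were higher in atRA than in DMSO organoids, with a median difference of 0.60. In culture 2, 4 were higher, with a median difference of -0.08, and 30 genes had opposite signs in the cultures. Mcm5 had 32.2, 32.6, 35.7 and 38.5 RPKM in atRA organoids, against 15.3, 18.2, 37.1 and 37.3 RPKM in DMSO organoids: the atRA libraries are close together and the DMSO cultures are far apart. Without culture 2 of the DMSO group 20 genes rose. The sum of the 6 enterocyte markers on day 5 was 20586 to 34369 RPKM in atRA organoids and 10381 to 13703 RPKM in DMSO organoids, and its part in these values was not tested.

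**Figure D4:**
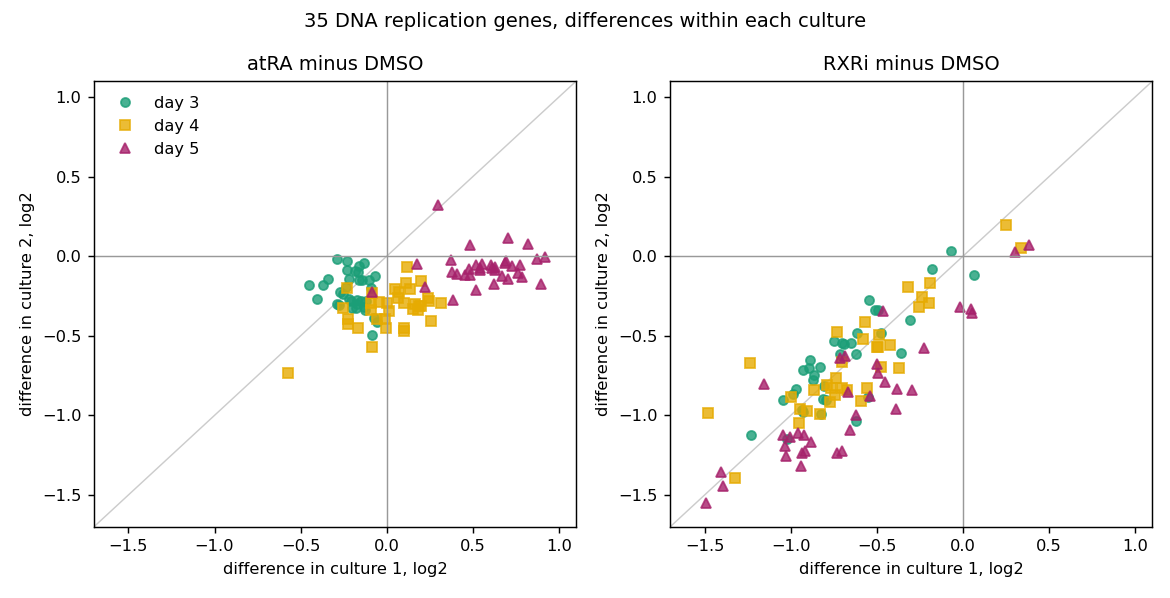
Difference in log2(RPKM + 1) from DMSO of each of the 35 genes in culture 1 (horizontal axis) and culture 2 (vertical axis), for atRA (left) and RXRi (right), on day 3 (green circles), day 4 (yellow squares) and day 5 (magenta triangles). The diagonal marks equal differences. For RXRi most points are below 0 on both axes on each day, and for atRA the day 5 points have a median of 0.60 in culture 1 and -0.08 in culture 2.

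Over the mean of days 1, 3, 4 and 5, 31 of the 35 genes were higher in atRA than in RXRi organoids and 1 was lower, where 40.8% of all genes were higher and 34.3% lower. Mcm10 had the largest difference, 1.19 ± 0.08 on the log2 scale. The gene that was lower in atRA organoids was Pole2, with -0.27 ± 0.07 (limma adjusted p = 0.00129). Median-of-ratios scaling and the voom alternative each called 2 as lower.

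The 35 genes varied alike over the 26 culture means. Pearson's r between pairs of genes had a median of 0.959 over 595 pairs and lay between 0.509 and 0.997, a description of points that share libraries, depth and days. Mcm2 was closest to the mean of the others (r = 0.997), and Gins4 (r = 0.782) and Pole2 (r = 0.850) were farthest from it. Among the tested genes on none of the lists used here, those most like the mean profile were Nsl1, a kinetochore component (r = 0.995), Dkc1, the pseudouridine synthase dyskerin (r = 0.995), and Exo1, an exonuclease of repair (r = 0.995), all over 26 culture means.

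Of 48 other genes of the replication machinery, 29 rose and 1 fell between day 0 and day 1 in DMSO organoids, where 25.6% of all genes rose and 35.6% fell. Between day 3 and day 4, 45 of the 48 fell and 1 rose, where 34.3% of all genes fell and 20.5% rose. With the smallest p at that second step stood Tipin, a fork protection factor (-1.65 ± 0.15), Rfc1, the large clamp loader subunit (-0.97 ± 0.10), Dbf4, the activator of the Cdc7 kinase (-0.98 ± 0.10), Orc2 (-1.33 ± 0.14) and Pold3 (-0.98 ± 0.11). The gene that rose, Pold4, a small polymerase delta subunit (1.14 ± 0.27), is named after its value was seen. Between RXRi and DMSO organoids on day 4, 34 fell and 3 rose, where 37% of all genes fell and 22% rose. Among the genes with the smallest p were Dna2, a nuclease and helicase (-1.46 ± 0.14), Asf1a, a histone chaperone (-0.90 ± 0.10), Ticrr, needed to activate origins (-0.90 ± 0.13), and Top2a (-1.09 ± 0.16). The 3 that rose, named after their values were seen apart from Orc2, were Orc2 (0.50 ± 0.14), Pold4 (0.82 ± 0.27) and Rrm2b, the p53-induced reductase subunit (0.99 ± 0.19). In atRA organoids on day 3 none of the 48 rose or fell by limma. The smallest p there was that of Dck, a nucleoside kinase, with -0.34 ± 0.12 (limma adjusted p = 0.112).

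Of 26 E2F, RB and G1/S genes, which regulate S phase entry, 12 fell and 5 rose between RXRi and DMSO organoids on day 4, where 37% of all genes fell and 22% rose, so the counts of this list lay near those of all genes. Ccnd1, the cyclin D1 that opens G1 with Cdk4 and Cdk6, had 284, 285, 286 and 275 RPKM in RXRi organoids, against 48.98, 55, 58.1 and 53.4 RPKM in DMSO organoids. The groups are far apart, with a log2 fold change of 2.37 ± 0.15 (limma adjusted p = 5.39e-10). Ccnd2 (1.08 ± 0.19), Cdk6 (0.87 ± 0.11), Ccnd3 (0.39 ± 0.12) and the activator E2f1 (0.55 ± 0.16) rose as well. Among those that fell were E2f2, another activator (-1.53 ± 0.19), E2f8, a late repressor (-1.46 ± 0.15), Ccna2, the S phase cyclin (-1.36 ± 0.17), and Cdk4 (-1.03 ± 0.16). Ccne1, the cyclin E that fires the G1/S switch, did not pass (0.16, 95% interval -0.34 to 0.66).

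Of 7 CDK inhibitor genes, 3 fell and 1 rose in the same comparison, also near the shares of all genes. Cdkn2a, which encodes p16 and p19ARF, had 20.4, 21.5, 22.2 and 14.95 RPKM in RXRi organoids, against 5.92, 7.22, 5.04 and 5.05 RPKM in DMSO organoids. Every RXRi library was above every DMSO library (1.61 ± 0.22, limma adjusted p = 6.34e-06). Cdkn1b (-0.93 ± 0.19), Cdkn1c (-1.02 ± 0.18) and Cdkn2c (-0.95 ± 0.10) fell. Cdkn2b, the p15 inhibitor of Cdk4 and Cdk6, had 71.4, 84.3, 63.2 and 63.5 RPKM in DMSO organoids on day 4, against 14.2, 17.9, 12.2 and 11.6 RPKM on day 3. That was the largest rise of the list between these days (2.27 ± 0.19), with Cdkn1a (0.84 ± 0.23) and Cdkn2a (0.74 ± 0.22) also rising, and Cdkn2c falling (-0.36 ± 0.10). At that step 20 of the 26 E2F, RB and G1/S genes fell and 4 rose, where 34.3% of all genes fell and 20.5% rose. Those with the largest falls were Ccne1 (-1.62 ± 0.24) and Mybl2, a factor of S and G2 genes (-1.62 ± 0.17).

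**Figure D5:**
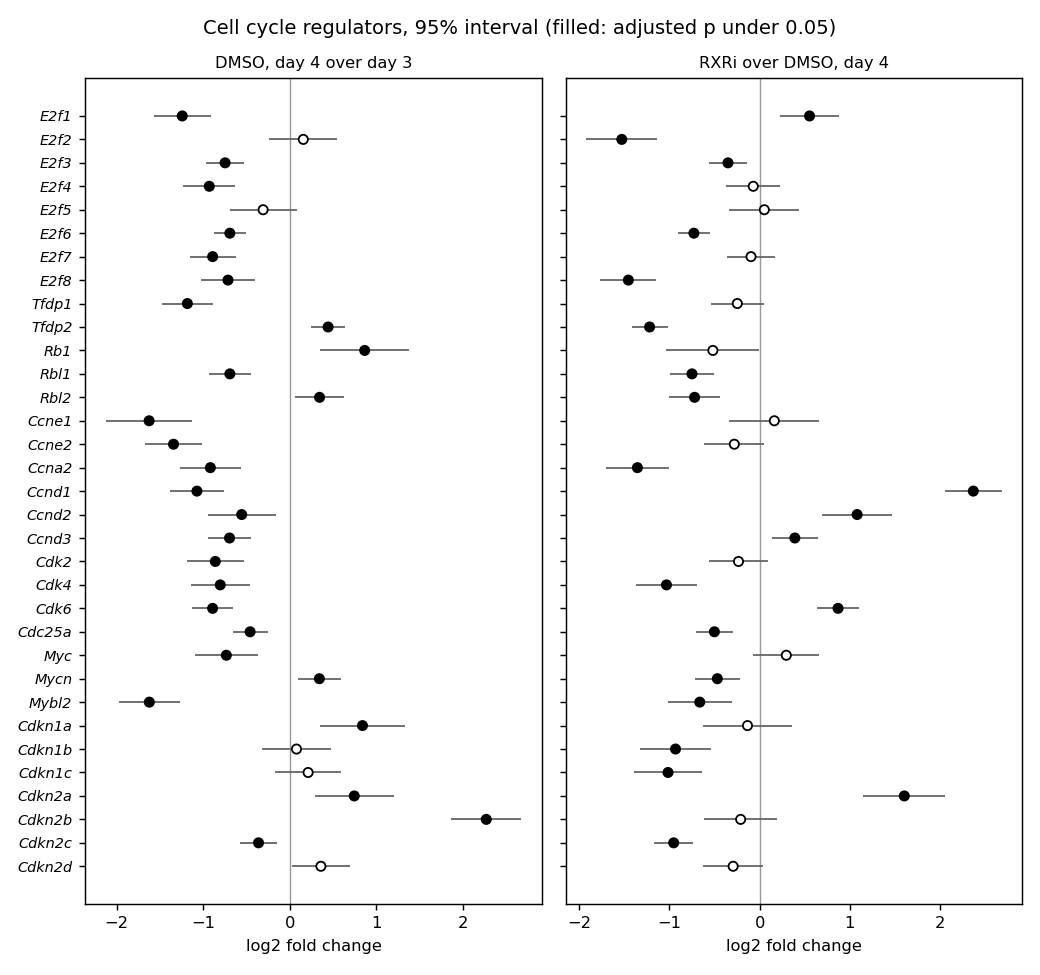
Log2 fold change with its 95% interval (horizontal axes) of 26 E2F, RB and G1/S regulators and 7 CDK inhibitors (rows), for day 4 over day 3 in DMSO organoids (left) and RXRi over DMSO on day 4 (right). Filled points passed the threshold of 0.05. Ccnd1 and E2f1 are left of 0 in the left panel and right of it in the right panel.

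Of 20 mitosis genes, 19 fell between RXRi and DMSO organoids on day 4 (37% of all genes fell), with a median of -0.97, and 7 fell on day 3 (25.4% of all genes fell), with a median of -0.36. Mki67, the proliferation antigen, had a log2 fold change of -1.19 ± 0.18 on day 4. In atRA organoids 6 of the 20 fell on day 4, where 7.35% of all genes fell. All 20 fell between day 3 and day 4 in DMSO organoids, where 34.3% of all genes fell, with a median of -0.93.

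Markers of mature and stem cells were read in the same comparisons. Of 6 enterocyte markers, 6 rose between day 3 and day 4 in DMSO organoids, where 20.5% of all genes rose and 34.3% fell. Their summed level was 3551 to 4075 RPKM on day 4, against 236 to 293 RPKM on day 3. All 6 fell between RXRi and DMSO organoids on day 4, where 37% of all genes fell and 22% rose. Their sum was 348 to 460 RPKM in RXRi organoids, against 3551 to 4075 RPKM in DMSO organoids. In atRA organoids the sum was 7709 to 8420.1 RPKM on day 3 and 25458 to 27512 RPKM on day 4. The 6 stem cell markers summed to 6.41 to 7.80 RPKM in RXRi organoids on day 4 and to 97.2 to 178 RPKM in DMSO organoids. Of them, 5 fell and 1 rose, where 37% of all genes fell and 22% rose. Between days 3 and 4 in DMSO organoids, 3 of the 6 fell and 1 rose, where 34.3% of all genes fell and 20.5% rose. The ranges of their sum overlapped, at 97.2 to 178 RPKM on day 4, against 133 to 143 RPKM on day 3. Between days 0 and 1 in DMSO organoids, 5 of the 6 fell and 1 rose, where 35.6% of all genes fell and 25.6% rose. Their sum was 128 to 134 RPKM on day 1, against 1147 to 1209.8 RPKM on day 0. Such sums weigh the most abundant markers: Fabp1 alone reached 25777 RPKM and Olfm4 alone 778 RPKM. The part of these cell types in the levels of the 35 genes was not tested.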

How the data were processed

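Per the submitters' processing notes, bcl2fastq 2.17, STAR 2.5.2b and the build mm10 were used. How reads were counted, on which annotation and whether by strand is not given in the sources used here. Overlapping or antisense genes may therefore share reads. The authors deposited RPKM for 52 libraries, per the file headers, and columns were matched to the labels by title. The design text counts 4 treatments and the labels name 3. In the titles, the prep number was read as the culture and the last digit as the duplicate purification: in a chi-square test on reads, 25 pairs of duplicates gave 2.03 to 15.8 per degree of freedom and 50 pairs across cultures gave 5.42 to 113.

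All 19708 genes above 0 gave whole reads within 0.001 of a read, used for depth and for 1 alternative. Intervals and depths cover counting error or the pooled spread of 2 cultures per group only. Duplicates were averaged on log2(RPKM + 1), giving 26 culture means. The test covered genes at or above 1 RPKM in 4 or more of 51 libraries (12443, with 11673 left out) with limma 3.58.1 in R 4.3.3 (trend, robust, 13 groups in 1 fit, 13 residual degrees of freedom, two-sided). The fit was tested on simulated data. Python 3.11.15, pandas 2.3.3, numpy 2.4.6 and matplotlib 3.10.9 did the rest. With the prep number so read, same-numbered samples share a mouse. The main fit held no term for culture, so its tests are unpaired, and the differences within each culture use the pairing. The deviations of same-numbered samples correlated between -0.317 and 0.759 among 78 group pairs, with a median of 0.149 and 47 above 0.1. The values therefore do not settle whether they are paired. A fit with culture as a block was an alternative. Others were scaling by median of ratios, a pseudocount of 0.1, no filter, the shallow library kept, each culture left out and, added after seeing the data, limma voom on recovered reads.

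The 35 genes and the other lists were chosen with earlier results of these data known. All genes of the E2F, CDK inhibitor and mitosis lists could be named, of the other replication genes the 5 with the smallest p in each of 3 comparisons, and of the remaining genes the 3 with the profile most like the mean of the 35. Some named results are not reported here.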

Additional observations from a re-analysis of the deposited data

Results flagged for a closer look

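None of the 12 groups of 4 libraries held a single library far from all the others in the mean level of the 35 genes. The 4 libraries are duplicates of 2 cultures, so a culture that deviates moves both its libraries, and this check cannot show it. In DMSO organoids on day 5 the mean log2 level was 3.64 in culture 1 and 4.21 in culture 2. The test of the RXRi step between days 3 and 4 minus the DMSO step called none of the 35 genes and 19 genes of the other lists. Those lists hold 26 E2F, RB and G1/S genes, 7 CDK inhibitors, 20 mitosis genes and 48 other replication genes. The change with time of the 19 genes therefore differed between RXRi and DMSO organoids. Among regulators the log2 difference was 1.09 for Ccnd1, 0.52 for Ccnd3, 0.62 for Cdk6 and 0.73 for E2f1, and it was -0.82 for Ccna2, -0.82 for E2f2, -0.53 for Mycn, -1.08 for Rb1 and -0.73 for Tfdp2. Among CDK inhibitors it was -1.24 for Cdkn2b, -0.75 for Cdkn2c and -0.70 for Cdkn2d. Among mitosis genes it was -0.59 for Bub1, -0.69 for Bub1b, -0.997 for Ccnb2, -0.83 for Kif11, -0.87 for Mki67 and -0.92 for Nusap1, and it was -0.67 for Top2a of the other replication genes. Across all genes 5.34% were called higher and 12.2% lower in this test.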

How the results depend on the processing

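Each culture is 1 of 2, so leaving out any of them changes counts: the number of the 35 genes that rose between days 0 and 1 was 16 to 22, fell between days 4 and 5 in DMSO organoids 0 to 10, fell by day 5 against day 0 24 to 35, fell under RXRi 0 to 1 on day 1, 21 to 30 on day 3, 15 to 29 on day 4 and 21 to 33 on day 5, rose under RXRi 0 to 1 on day 4 and 0 to 2 on day 5, fell under atRA 0 to 1 on day 4, rose under atRA 0 to 20 on day 5, and was lower in atRA than in RXRi organoids 1 to 2. With the shallow library kept, the counts were 12 between days 0 and 1, 21 for day 5 against day 0, 0 for atRA on day 4, 16, 16 and 17 for RXRi on days 3, 4 and 5, and 23 and 22 for the day 3 to 4 step in atRA and RXRi organoids. Median-of-ratios scaling gave 22 for day 5 against day 0, 6 lower for RXRi on day 1, 2 higher for RXRi on day 4 and 2 lower in atRA than in RXRi organoids, which voom gave as 2 too. In comparisons without DMSO organoids of day 1, the shallow library acts only through the shared spread and the set of genes tested. The cause of the other moves was not tested. With the culture as a replicate block, 4 genes fell under RXRi on day 1 and 29 on day 4, and the other counts of the 35 genes did not change. The pseudocount of 0.1 and the absence of a filter moved no count of the 35 genes by over 1.5 times.

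Signs turned with the shallow library kept between days 0 and 1 for Mcm3 (-0.77), Orc1 (-0.087), Orc6 (-0.58), Cdc6 (-0.016), Cdc45 (-0.47), Gins1 (-0.21), Gins2 (-0.82), Gins3 (-0.21), Gins4 (-0.74), Pole (-0.69), Pold1 (0.20), Rfc5 (-0.74), Rpa2 (-0.75), Chaf1b (-0.61), Uhrf1 (-0.99) and Ccne1 (-0.0045), and for Gins3 under RXRi on day 1 (0.38). Scaling turned Gins4 (0.016) and Pole2 (0.025) under RXRi on day 3. With 1 culture left out, values that had not passed turned in sign: Mcm5 under atRA was -0.30 to 0.32 on day 4 and -0.099 to 1.01 on day 5, and under RXRi Gins4 was -0.13 to 0.072 on day 3, -0.021 to 0.41 on day 4 and -0.0017 to 0.45 on day 5, Pole2 -0.088 to 0.052 on day 3 and -0.11 to 0.43 on day 5, Orc6 -0.36 to 0.0012 on day 4 and -0.42 to 0.079 on day 5, Gins2 -0.60 to 0.29 and Tyms -0.50 to 0.21 on day 5, and Ccne1 -0.20 to 0.52 on day 4.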

Other observations

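The shallow library that was left out held 46 reads of the 35 genes, 0.370% of its 12443 reads, against 0.513% to 0.532% in the other 3 libraries of the day 1 DMSO group.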
